A study of Drosophila melanogaster with 2 samples.

Results

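The long contact domains of Kc167 cells, those over 100 kb, number 233 among the 2126 domains of the deposited map. They were chosen by length alone, as the listed end minus the listed start, so their lengths are given as a description. Kc167 is a cell line derived from Drosophila melanogaster embryos, and the 2 samples, labelled primary and replicate, are untreated cells grown at 25 °C and fixed with 1% paraformaldehyde. They were assayed by tethered Hi-C, in which biotinylated, DpnII-cut chromatin is ligated on streptavidin beads and the joined fragments are sequenced, so that each pair of reads records a contact. The authors combined both samples into 1 list of domains and 1 list of loops on the dm3 build, so there is 1 group and no control. No value has a spread between samples, and the depth behind a domain or loop is unknown.

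A contact domain is a stretch of chromosome that contacts itself more than its surroundings. In Drosophila, long domains are known mostly for silent chromatin, either Polycomb-bound or lacking active marks, while active genes tend to lie in short domains and in the gaps between domains. A loop joins a pair of separate anchors that meet more often than the sequence around them. No chromatin mark or gene activity was measured here, and genes were not assigned to the domains.

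The median long domain measured 160 kb. The shortest had 102 kb and the longest 740 kb, and the middle 50% lay between 126 and 228 kb. They held 45.8 of the 95.4 Mb that lie in domains. Of the 233, 101 were up to 150 kb, 59 were over 150 and up to 200 kb, and 73 were longer. On the arms, 13.2% of domains were long on 2L (48 of 364), 7.22% on 2R (32 of 443), 12.0% on 3L (49 of 407), 11.6% on 3R (59 of 507) and 11.7% on X (45 of 384). Chromosome 4 had none among 21 domains, which allows a share of up to 14.3%. Long domains thus took up the smallest part of 2R, 27.4% of the arm as covered by the lists, against 37.7 to 42.9% of the other large arms.

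The threshold cuts a continuous range of lengths. Just above it lay 7 domains of 102 kb: 21314001 to 21416000 on 2L, 2040001 to 2142000 and 3168001 to 3270000 on 2R, 14626001 to 14728000, 16776001 to 16878000 and 25716001 to 25818000 on 3R, and 16864001 to 16966000 on X. Their corner scores, the authors' measure explained below, ran from 1.18 to 1.64. Just under it lay 5 domains of exactly 100 kb: 19958001 to 20058000 on 2L, 20300001 to 20400000 on 2R, 9505001 to 9605000 on 3L, 3956001 to 4056000 on 3R and 550001 to 650000 on X. Their corner scores ran from 1.12 to 1.57, a range that overlaps that of the domains just above.

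The first question was how the long domains are spaced. They were seldom direct neighbours: of the 464 neighbours of long domains, 26 were long themselves, or 5.60% (exact binomial interval 3.69 to 8.10%), against 10.9% of all neighbours in the list. These intervals count domains of 1 pooled map as independent and cover counting only. Each pair of long domains is also counted from both sides, so the interval for long neighbours is too narrow. The 26 form 13 pairs, no 3 long domains followed each other, and 207 of the 233 had no long direct neighbour. On 3R none of the 118 neighbours was long, which allows a share of up to 2.54%, although 11.6% of its domains were long. On 2R the share was 9.38% (6 of 64 neighbours), above that arm's 7.22% of long domains, so the scarcity was not seen there. The arms 2L, 3L and X had 6.32, 8.16 and 6.74% of long neighbours.

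One step further the order turned in the point values. At rank distance 2, with 1 domain in between, 72 of 461 positions held a long domain, or 15.6% (12.4 to 19.3%), above the 11% of all domains. These positions are 36 pairs, each counted from both sides, so the interval is too narrow to be held against the 11%. From rank distance 3 to 8 the share moved between 7.81 and 12.1%, on either side of 11%. Of the 228 steps from one long domain to the next on the same arm, 36 had exactly 1 domain in between, the most frequent number, 13 had none and 16 had 2. The 36 domains between 2 long ones had a median length of 16.5 kb (order-statistic interval 13.5 to 25 kb) and ranged from 6.5 to 92 kb. A long domain, a single domain that is not long and another long one was therefore a more common sequence than 2 long domains side by side.

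**Figure D1:**
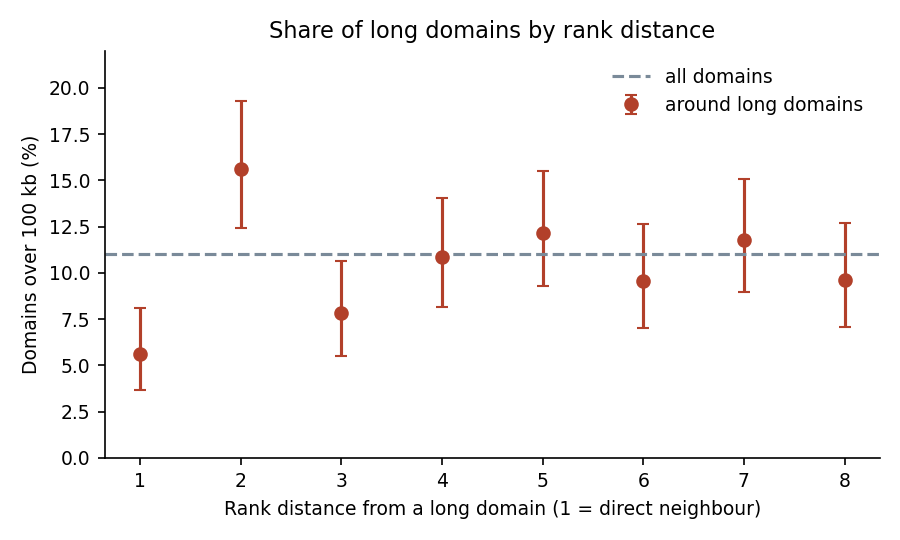
Share of positions held by a domain over 100 kb (%, y axis) at each rank distance from a long domain (x axis, both directions pooled), with exact 95% binomial intervals as bars and the 11% of all domains as a dashed line. The point at rank 1 (5.60%) lies under the line and the point at rank 2 (15.6%) above it. Each pair of long domains is counted from both sides, so the bars are too narrow.

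The 13 pairs of direct long neighbours were separated by 5 to 369 kb, with a median of 15 kb. The closest, 5 kb apart, were 12110001 to 12230000 with 12235001 to 12455000 on 2R and 22310001 to 22705000 with 22710001 to 22860000 on 3L. The pair on 3L held 4 and 2 anchors, and the pair 14150001 to 14470000 with 14495001 to 14700000 on X held 2 each. In the other 11 pairs at least 1 of the domains held no anchor. In 3 pairs the gap exceeded 50 kb, so that the domains follow each other in the list without lying close. One such gap, of 52 kb, parts 16358001 to 16490000 from 16542001 to 16674000 on 2L. The gap between 2040001 to 2142000 and 2390001 to 2495000 on 2R is 248 kb, and the one between the last 2 domains listed on X is 369 kb. Similar corner scores stood side by side on 3L, where 10690001 to 10868000 had 1.88 and 10892001 to 11032000 had 1.87, and on 2R, where 10378001 to 10504000 had 1.82 and 10512001 to 10636000 had 1.81.

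In distance, the end of one long domain lay 210.5 kb before the start of the next in the median (interval 164 to 264 kb, n = 228), and the middle 50% of distances ran from 73.3 to 413 kb. These stretches held a median of 6 other domains and at most 40. Together they made up 66.4 Mb with 1742 other domains, which covered 68.7% of them. A step of 50 kb or less occurred 42 times and one of over 1 Mb 6 times. The longest, 1562 kb on 2L between 7064001 to 7180000 and 8742001 to 8940000, held 37 other domains. The longest on X, 1390 kb between 2235001 to 2475000 and 3865001 to 3990000, held 24, and one of 1273 kb between 15488001 to 15591000 and 16864001 to 16966000 held 40.

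Where long domains were strung together with at most 1 other domain in between, they formed 34 sets of 2, 6 sets of 3 and 1 set of 4, and the other 143 stood alone. The sets named here were picked with their values in view. The set of 4 covered 2L 11132001 to 11986000, where 756 kb of 854 kb lay in long domains. A set of 3 spanned 1.52 Mb of 2L, 16915001 to 18440000, with 88.9% in long domains and no anchor. Another on 3L, 22310001 to 23085000, had 96.8% of its 775 kb in long domains. In windows of 1 Mb along the large arms, long domains covered a median of 36.9%, with quartiles at 24.5 and 51.5% (n = 116). They covered 89.8% of 3L 22000001 to 23000000 and 86.5% of 2L 17000001 to 18000000. There was none in 3 windows: 5000001 to 6000000 and 20000001 to 21000000 on 2R, each with 30 domains, and 1 to 1000000 on 3L, with 25.

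The second question was what lies beside a long domain. Neighbours that were not long themselves had a median length of 18 kb (16.5 to 19.5 kb, n = 438), against 19 kb (18.5 to 20 kb, n = 3338) for those of other domains. The intervals overlap. Neighbours of 50 to 100 kb made up 8.19% of all neighbours of long domains and 10.9% of those of other domains, and neighbours of up to 10 kb 18.1 and 16.0%. The domain before and the domain after a long one were alike in length, with medians of 19 and 18.5 kb. Of the 231 long domains with a neighbour on both sides, 217 were longer than both, and 119 were over 5 times as long as the longer one, which follows in part from how they were chosen. In 65 cases both neighbours were 20 kb or shorter.

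The scores of these neighbours stood a little higher than elsewhere. Their median corner score was 1.32 (1.28 to 1.36, n = 438), against 1.27 (1.25 to 1.28, n = 3338) for the not-long neighbours of other domains, and the intervals meet at 1.28. At rank distances 2 to 8 from a long domain the median of domains that were not long lay between 1.24 and 1.29. Their uVarScore was 0.0479 (0.0456 to 0.0509) against 0.0438 (0.0432 to 0.0448), and their lVarScore 0.0476 (0.0450 to 0.0505) against 0.0441 (0.0431 to 0.0449). Both intervals lay above those of the comparison, for lVarScore only just (0.0450 against 0.0449). Anchors lay in 10 of these 438 neighbours (2.28%) and in 68 of the 3338 neighbours of other domains (2.04%). A domain with a neighbour on each side can enter these counts once for each of them. The intervals are therefore too narrow, and the separation by lVarScore is not secure.

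The third question was how far the long domains lie from their neighbours. Their gaps had a median of 6 kb (5 to 6.5 kb, n = 464 ends), against 3.5 kb (3 to 3.5 kb, n = 3776) for other domains and 5 kb (4 to 5.5 kb, n = 449) for domains of 50 to 100 kb. Very narrow gaps made up a smaller share of them: 80 of 464 ends (17.2%, 13.9 to 21.0%) had a gap of 2 kb or less, against 37.1% of all ends in the list and 39.5% of the ends of other domains. At both ends this held for 7 of 231 long domains (3.03%) and 299 of 1883 other domains (15.9%). Wide gaps, over 50 kb, lay at 24 of 464 ends (5.17%, 3.34 to 7.60%), against 4.39% of all ends, which is within the interval. The 93 gaps over 50 kb bordered a long domain in 21 cases (22.6%), and all 2120 gaps did so in 451 cases (21.3%).

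The grid of the listed ends moved with these gaps. Both ends lay on multiples of 5 kb in 112 of the 233 long domains, and in 61 of the 73 over 200 kb. Of the domains of 50 to 100 kb this was true of 25 of 226. Long domains on the 5 kb grid had a median gap of 8 kb (6 to 9 kb, n = 223 ends) and those off it 4.5 kb (4 to 5.5 kb, n = 241). Among domains off the grid the narrow gaps made up 22.4% of the ends of long domains (17.3 to 28.2%), 29.5% of the ends of those of 50 to 100 kb (25.1 to 34.2%) and 39.8% of the ends of all others. The difference in median gap from all other domains was thus 1 kb off the grid and 2.5 kb in the whole list. Against the domains of 50 to 100 kb, which had a median gap of 4.5 kb off the grid (4 to 5 kb, n = 400), there was no difference in the median.

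**Figure D2:**
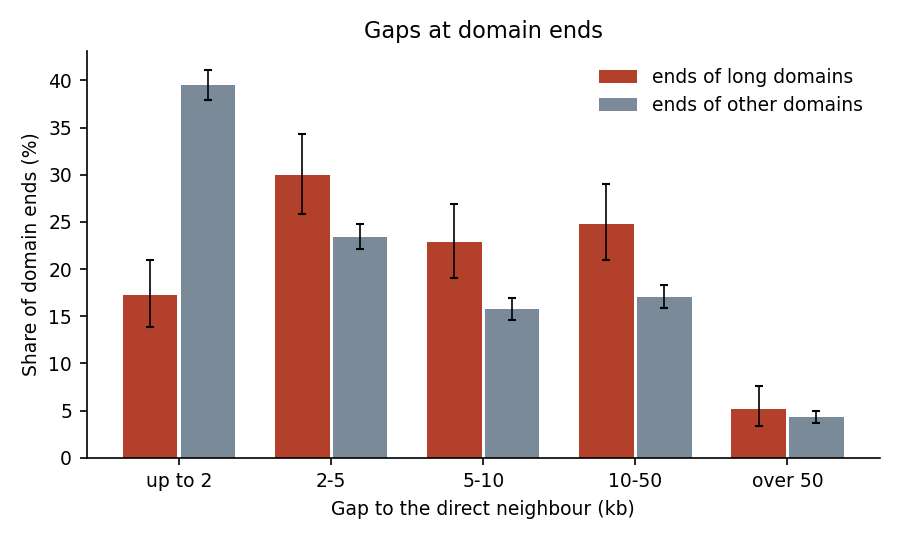
Share of domain ends (%, y axis) by gap to the direct neighbour in kb (x axis), for the 464 ends of long domains in red and the 3776 ends of other domains in grey, with exact 95% binomial intervals. Gaps up to 2 kb make up 17.2% of the ends of long domains and 39.5% of the ends of the others, while those over 50 kb make up 5.17 and 4.29%.

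The start and the end of a long domain had similar gaps, with medians of 5 and 6 kb. Both gaps were 10 kb or less in 119 of 231 long domains (51.5%), and both were over 10 kb in 25 (10.8%), against 62.9 and 5.31% of other domains. The least separated long domain was 14065001 to 14530000 on 3L, 465 kb long, with gaps of 0.5 and 1.5 kb. Next came 7064001 to 7180000 on 2L (0.5 and 2 kb), and on 3R 10567001 to 10698000 (1 and 2 kb), 17204001 to 17404000 (2 and 1 kb) and 20186001 to 20342000 (1 and 2 kb). All 5 of these close-set domains had corner scores between 1.51 and 1.80.

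The widest gaps lay at 5 long domains. On X, 369 kb separated 21271001 to 21476000 from 21845001 to 22420000, the last domain listed on that arm. On 2L, 253 kb preceded 22852001 to 22985000, also the last listed on its arm. On 2R, 248 kb separated 2040001 to 2142000 from 2390001 to 2495000. Of these 5, the first domain on X had a corner score of 0.835 with a uVarScore of 0.358, and the domain on 2L had 1.23 with a uVarScore of 0.379, the highest uVarScore of any long domain.

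The fourth question was how the scores of long domains compare. The deposited columns bear the names that Juicer's domain caller writes, in which the score rates how well a point of the map fits the corner of a domain. The uVarScore and lVarScore are the variances of the upper and lower triangle of values around that corner, and upSign and loSign rate how uniform their signs are. The sources used here do not name the caller, and no scale is stated for the scores. They come from the same call as the length, so the values are described and not tested.

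Corner scores of long domains had a median of 1.53 (1.50 to 1.57, n = 233), with quartiles at 1.39 and 1.68. Other domains had 1.27 (1.25 to 1.29, n = 1893), and those of 50 to 100 kb 1.37 (1.31 to 1.45, n = 226). Low scores were rare among the long domains: 8 of 233 (3.43%) lay under the lower quartile of the list, against 50 of 226 domains of 50 to 100 kb (22.1%). Above the upper quartile lay 129 of 233 (55.4%), against 25% of all domains by construction and 85 of 226 of those of 50 to 100 kb (37.6%). Among the long domains the score hardly followed length, with a median of 1.52 up to 150 kb, 1.53 up to 200 kb and 1.55 above (Spearman rho = 0.08, n = 233 domains of 1 map). In the domains up to 100 kb the rho was 0.35 (n = 1893).

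The difference in score was present on each large arm, with medians of 1.49 in long and 1.24 in other domains on 2L, 1.60 and 1.28 on 2R, 1.51 and 1.28 on 3L, 1.54 and 1.27 on 3R, and 1.53 and 1.29 on X. It also held on either side of the grid. Long domains on the 5 kb grid had a median of 1.48 (1.44 to 1.53, n = 112) and those of 50 to 100 kb on it 0.961 (0.851 to 1.07, n = 25). Off the grid the medians were 1.59 (1.54 to 1.65, n = 121) in long domains and 1.42 (1.36 to 1.48, n = 201) in those of 50 to 100 kb.

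The variance columns separated long domains from the rest much less. The uVarScore had a median of 0.0482 in long domains (0.0445 to 0.0536), 0.0443 in other domains (0.0433 to 0.0456) and 0.0507 in those of 50 to 100 kb (0.0461 to 0.0550). The lVarScore had medians of 0.0470 (0.0427 to 0.0510), 0.0445 (0.0432 to 0.0455) and 0.0491 (0.0442 to 0.0554) in the same order. For both columns the interval of long domains overlapped that of other domains and that of the class of 50 to 100 kb. Above the 90th percentile of the list by uVarScore lay 29 of 233 long domains (12.4%) and 39 of 226 of that class (17.3%). By lVarScore these were 22 (9.44%) and 44 (19.5%). Above the upper quartile the shares were alike by uVarScore, 34.8 and 35.0%, and were 27.9 and 35.4% by lVarScore. High values were thus scarcer in long domains than in the class of 50 to 100 kb at both cuts only for lVarScore. Of other domains, 23.8% lay above the upper quartile by uVarScore and 24.7% by lVarScore, both under the shares of long domains. Above the 90th percentile lay 9.72 and 10.1% of other domains, against 12.4 and 9.44% of long domains. No intervals were taken for these shares. Neither triangle prevailed: the uVarScore was the larger in 125 of 233 long domains (53.6%, 47.0 to 60.2%) and in 949 of 1893 others (50.1%).

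**Figure D3:**
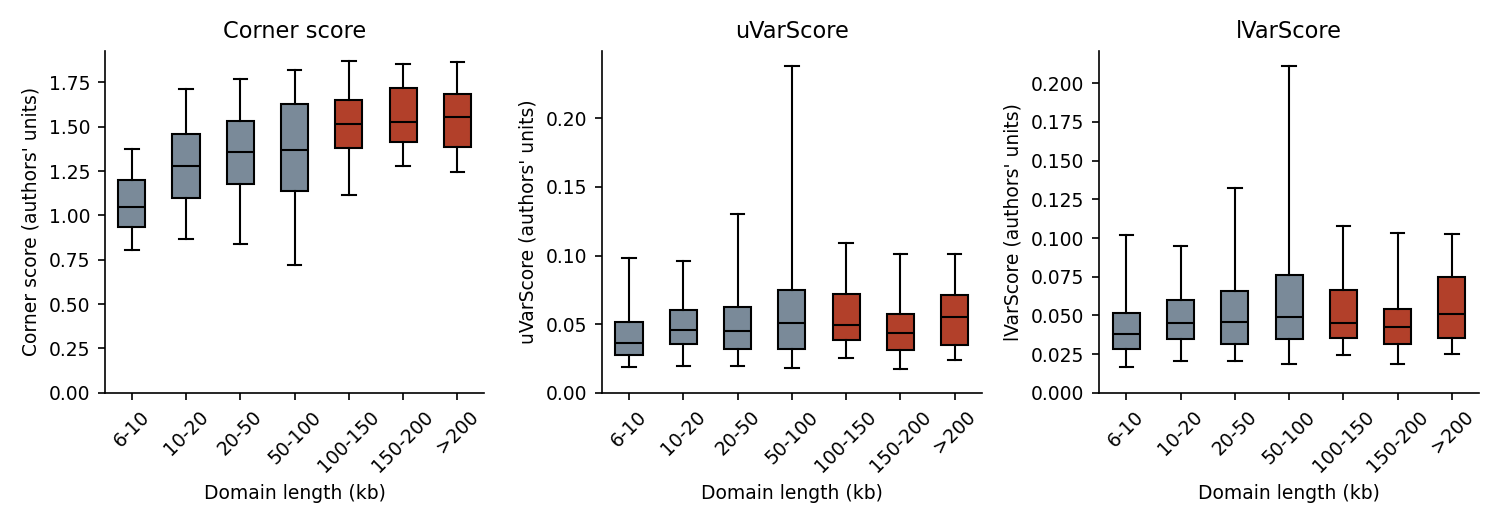
Corner score, uVarScore and lVarScore (y axes, in the authors' units) by domain length class in kb (x axes); boxes show quartiles and median, whiskers the 5th and 95th percentiles, and long classes are red. The median corner score is 1.52, 1.53 and 1.55 in the red classes and 1.37 in the class below them, where both variance columns have their longest upper whiskers.

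Single long domains had corner scores from 0.789 to 1.91, while other domains reached down to 0.0464. The highest were 6720001 to 7020000 on 3R (1.91, 300 kb), 7342001 to 7468000 on 2R (1.91, 126 kb), 308001 to 464000 on 3R (1.90, 156 kb), 13022001 to 13162000 on 2L (1.90, 140 kb) and 20535001 to 20755000 on 3L (1.90, 220 kb). All 5 had gaps of 10 kb or less at both ends and neighbours of 11 to 37.5 kb. The lowest were 4432001 to 4538000 on 3L (0.789), 21271001 to 21476000 on X (0.835), 9995001 to 10100000 on X (0.990), 15884001 to 16068000 on 3R (1.03) and 4190001 to 4340000 on 3R (1.07). None of these 5 held an anchor, while 3 of the 5 with the highest scores held 2 anchors and 1 whole loop each. Of all long domains 79.8% held no anchor, so no link between score and anchors can be read from so few domains.

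The 10 longest domains had corner scores between 1.32 and 1.86. On 3R the 740 kb domain 2980001 to 3720000 lay between neighbours of 14.5 and 18 kb, with gaps of 10 and 8 kb. The 600 kb domain 11190001 to 11790000 on 3R lay between neighbours of 16 and 9 kb, and the 540 kb domain 11925001 to 12465000 on X between neighbours of 13.5 and 7.5 kb. On 2L the domains 16915001 to 17365000 (450 kb) and 17500001 to 18125000 (625 kb) had the same 92 kb domain in between. The remaining ones were 1625001 to 2165000 on 3R (540 kb), 18105001 to 18605000 (500 kb) and 14065001 to 14530000 (465 kb) on 3L, 15650001 to 16120000 on 2R (470 kb) and 21845001 to 22420000 on X (575 kb). The last 4 named each held 2 anchors and 1 whole loop, and the other 6 of the 10 held no anchor.

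The fifth question was which long domains hold loop anchors. At least 1 of the 202 distinct anchors lay in 47 of the 233 long domains, or 20.2% (15.2 to 25.9%), against 4.05% of all domains and 2.06% of the other domains (39 of 1893). Of the domains of 50 to 100 kb, 17 of 226 held one (7.52%, 4.44 to 11.8%). A whole loop, with both anchors inside, was found in 43 long domains (18.5%, 13.7 to 24.0%), against 2.73% of all domains and 0.792% of the others. Among the domains of 50 to 100 kb, 10 of 226 held one (4.42%, 2.14 to 7.99%). A longer domain has more room for anchors and loops. The rate per length was therefore taken too, for anchors but not for whole loops. Long domains held 2.31 anchors per Mb (106 anchors, exact Poisson interval 1.90 to 2.80), other domains 1.23 (61 anchors, 0.940 to 1.58) and the gaps between domains 1.49 (35 anchors, 1.04 to 2.07). Domains of 50 to 100 kb, with 1.86 per Mb (1.25 to 2.65), were not distinct from long domains beyond the intervals, which do not take into account that anchors come in pairs.

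Within the long domains the point values of the share with an anchor rose with length and those of the rate per Mb fell. An anchor lay in 16 of 101 domains up to 150 kb (15.8%), in 12 of 59 up to 200 kb (20.3%), in 10 of 42 up to 300 kb (23.8%) and in 9 of 31 longer ones (29.0%). The rate was 2.89 anchors per Mb in the first class, 2.43 in the second, 2.34 in the third and 1.64 in the fourth. The interval for the first share, 9.33 to 24.4%, and that for the last, 14.2 to 48.0%, overlap. So do the Poisson intervals of the rate up to 150 kb, 2.02 to 4.00 per Mb, and over 200 kb, 1.43 to 2.61 per Mb. Neither direction is thus set apart beyond the intervals.

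**Figure D4:**
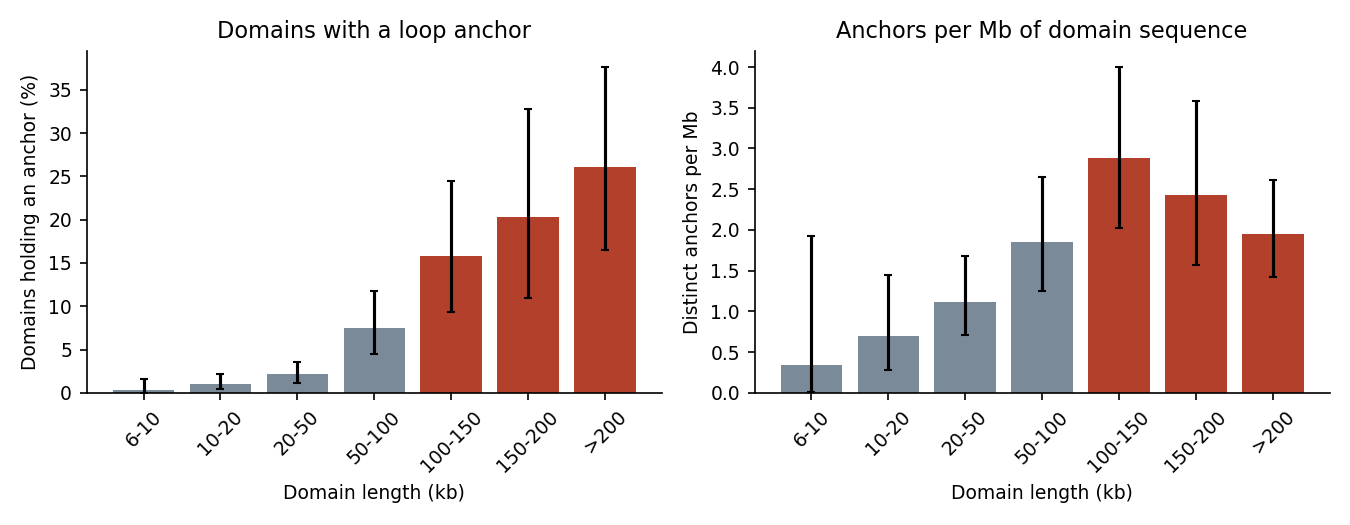
Share of domains holding a distinct loop anchor (left, %, exact binomial intervals) and distinct anchors per Mb of domain sequence (right, exact Poisson intervals) by domain length in kb (x axes), with the long classes in red. The share is highest above 200 kb (26.0%), and the rate is highest from 100 to 150 kb (2.89 per Mb).

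Most long domains, 186 of 233 (79.8%), held no anchor. Those with an anchor had a median length of 186 kb (152 to 220 kb, n = 47), against 158 kb (150 to 172 kb, n = 186) for those without, with overlapping intervals. Their corner scores were 1.59 (1.54 to 1.71) against 1.51 (1.47 to 1.55), overlapping as well. The lVarScore was 0.0388 (0.0367 to 0.0476) in those with an anchor and 0.0481 (0.0442 to 0.0529) in those without, and these intervals overlap too. The loSign was 0.941 (0.925 to 0.958) in those with an anchor and 0.916 (0.908 to 0.924) in those without. Only here do the intervals not overlap, and narrowly. The upSign was 0.936 (0.920 to 0.954) against 0.914 (0.904 to 0.923), and the uVarScore 0.0438 (0.0397 to 0.0518) against 0.0506 (0.0465 to 0.0554), both overlapping. In long domains loSign had a Spearman rho of 0.18 with length, and the part of length in its difference was not tested. Gaps had medians of 7 kb in long domains with an anchor and 5.5 kb in those without.

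By arm, an anchor lay in 13 of 45 long domains on X (28.9%), 12 of 49 on 3L (24.5%), 8 of 48 on 2L (16.7%), 5 of 32 on 2R (15.6%) and 9 of 59 on 3R (15.3%). The interval for X, 16.4 to 44.3%, and that for 3R, 7.22 to 27.0%, overlap. The longest series without an anchor covered the far part of 3R, where the last 28 long domains of the arm, 4.94 Mb in all from 14626001 to 27394000, held none. On 2L 13 long domains in a row between 1504001 and 7180000 held none, and on 2R 13 between 8090001 and 15494000. These series were chosen after their values were seen. Of the 228 steps from one long domain to the next, both had an anchor in 10, one of them in 72 and neither in 146.

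Long domains that held anchors usually held a complete pair. Of the 47, 32 held exactly 2 distinct anchors, 7 held 3, 3 held 4, 1 held 5 and 4 held 1. In those 4 the anchor belonged to loops that left the domain. On 2R, 4620001 to 4775000 held the anchor of loops spanning 6310 and 6215 kb. On 3L, 6546001 to 6732000 held 1 anchor of a loop of 2675 kb, and on X, 19220001 to 19365000 held 1 of a loop of 5987.5 kb. On 2L, 8742001 to 8940000 was joined to an anchor in the gap just before it, 148 kb away. So 3 of the 4 long domains with a single anchor had it from loops over 1 Mb.

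Of the 120 loops, 57 lay whole inside a long domain and 20 inside another domain. The median span was 53.5 kb in long domains (43.8 to 67 kb, n = 57), against 28.8 kb in other domains (23 to 36 kb, n = 20). As a share of the domain the order turned, with 27.8% (20.7 to 36.6%) in long domains against 50.8% (39.3 to 69.4%) in others. In long domains 10 of 57 loops spanned over 50% of the domain, against 10 of 20 in other domains. These differences follow in part from the choice by length. A loop inside a domain cannot outspan it, and the share divides by domain length. No loop had both anchors within 10 kb of the ends of its long domain, which allows a share of up to 5.26%, and 50 of 57 had neither that close.

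Of the 106 anchors, 6 (5.66%, 2.11 to 11.9%) were within 5 kb of an end of the long domain, and 95 (89.6%) were over 20 kb from both. The share of domain length in these zones was not taken, so these counts alone do not show whether anchors avoid the ends. The median distance to the nearer end was 51.8 kb. The first 10% of domain length held 5 anchors and the last 10% held 6, together 10.4% of the anchors (5.30 to 17.8%) for 20% of the length. The stretch from 70 to 80% held most, 20, and the one from 40 to 50% held 6. These stretches were picked with their counts in view, and anchors come in pairs. Whether the interior is filled evenly was not tested. The first 50% of the length held 49 anchors (46.2%, 36.5 to 56.2%).

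**Figure D5:**
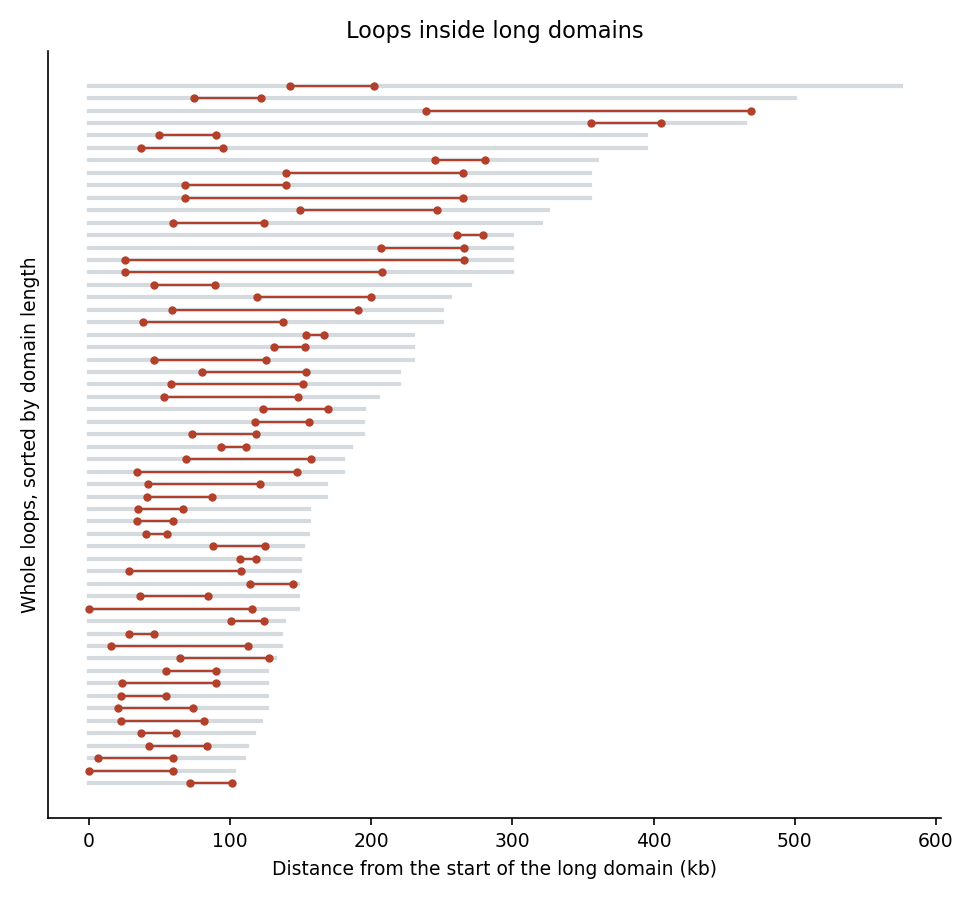
The 57 loops that lie whole inside a long domain, 1 per row and sorted by domain length; the grey bar is the domain from its start (x axis, kb) to its end, and the red line joins the midpoints of the 2 anchors. The widest covers 80% of its domain and the narrowest 5.43%, and no loop reaches from end to end.

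The domain with most anchors, 14365001 to 14595000 on 2L, held 5 anchors and 3 whole loops, of 79.3, 22 and 12.5 kb. From 3 places inside it, further loops of 103.5, 81.5 and 69 kb led to the anchor 14598001 to 14601001 in the gap just past its end. The other 3 domains with 3 whole loops each held 3 anchors, all joined to each other. In 12564001 to 12690000 on 2L these loops spanned 32, 35 and 67 kb. In 21760001 to 22115000 on 2L they spanned 71, 125 and 197 kb, and in 11215001 to 11515000 on 3L 58.5, 181.5 and 240 kb. The loop of 240 kb, from 11240001 to 11242001 to 11480001 to 11482001, covered 80% of its domain, the largest share among the loops inside long domains. In other domains the share reached 94.2%.

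With 4 anchors and 2 loops each followed 1352001 to 1488000 and 22310001 to 22705000 on 3L and 8616001 to 8764000 on X. In the first, a loop of 96.5 kb (1366001 to 1370001 with 1462501 to 1466501) enclosed one of 18 kb (1379001 to 1382001 with 1397001 to 1400001). In the second, a loop of 58 kb (22346001 to 22348001 with 22404001 to 22406001) enclosed one of 40 kb (22358001 to 22362001 with 22398001 to 22402001). In the domain on X, a loop of 115 kb enclosed one of 48.5 kb, and its first anchor, 8615501 to 8617001, lay at the start of the domain. All 3 domains therefore held 1 loop nested within another. With 3 anchors there were also 7556001 to 7724000 on 2R, 12530001 to 12724000 on 3L, 14240001 to 14396000 on 3R and 4265001 to 4420000 on X.

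Loops that left a long domain were few. Besides the 57 inside, 13 of the 120 loops had an anchor in a long domain: 7 led to a gap and 6 to a shorter domain. No loop joined 2 different long domains. On 3R, 4 of the 13 joined the 152 kb domain 2738001 to 2890000 to the 84 kb domain 2650001 to 2734000 just before it, over 108, 144, 152 and 190 kb. On X, a loop of 22.5 kb led from 4265001 to 4420000 to an anchor just past its end, and 4 loops were those over 1 Mb named above.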

How the data were processed

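The authors deposited 2 lists, whose file names call them combined from both samples. BWA, Juicer and the dm3 (BDGP5) build are named in the submitters' processing notes. Versions, callers and settings were not given in the sources used here. Each domain has 5 score values from the authors, per the file headers, on no stated scale. Starts are printed as the listed start plus 1, and anchors as listed. Anchors that overlapped or touched were merged, and 1 base was taken off their midpoints to match the domain list. An anchor lay in a domain when its midpoint did, ends included; 9 midpoints lay exactly on a domain end. A gap is the distance between neighbouring domains of an arm. Shares have exact Clopper-Pearson, medians order-statistic and rates exact Poisson intervals (95%), and a count of 0 a limit of 3 counts. All of them cover counting error only, and they are too narrow where a pair, neighbour or gap is counted from both sides. No test was run, since no value exists per sample. Code ran on Python 3.11.15 with numpy 2.4.6, pandas 2.3.3 and scipy 1.17.1, and was tested on simulated data. The domains and contrasts were chosen with earlier results of these data known. The regions named are the 10 longest, the 5 highest and 5 lowest corner scores, those beside the threshold, those with most anchors, and those with the widest and narrowest gaps, unless stated. The gene table at hand is of another build and was not used, and no sequence is shown.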

Additional observations from a re-analysis of the deposited data

How the results depend on the processing

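No paired analysis was possible because both samples were pooled before deposit, and no sample could be left out. The alternatives were another length threshold (75 or 150 kb), the upper 50% by corner score, each large arm left out, 2 Mb at the arm ends left out, domains on the 5 kb grid left out, neighbours within 10 kb, anchors by any overlap and loops under 1 Mb. Of 109 values, 93 stayed within the interval of the value reported and on the same side of the other domains. The share of long neighbours was 8.75% at 75 kb, 2.28% at 150 kb and 3.69% within 10 kb, in each case under that of other domains (16.2, 6.46 and 10.5%). Without 3R it was 7.51% (4.97 to 10.8%, n = 346) against 11.1%, the largest move for any arm left out. That interval counts each pair of long domains from both sides and is too narrow. The median length of neighbours equalled that of other domains at 75 kb (18 kb for both) and exceeded it off the 5 kb grid (19.5 against 19 kb). The median gap was 6.75 kb without 3R, 4.5 kb off the grid and 4 kb within 10 kb. The spacing was 140 kb at 75 kb, 384 kb at 150 kb and 472.5 kb off the grid, where fewer domains remain by construction. The corner score was 1.58 in the upper 50%, where the score itself makes the choice, and 1.59 off the grid. In the upper 50%, uVarScore and lVarScore turned, to 0.0474 in long against 0.0502 in other domains and 0.0452 against 0.0498; the cause was not tested. Anchors per Mb came to 2.85 off the grid. The shares of long domains with an anchor (17.4 to 23.5%) and with a whole loop (14.6 to 21.2%) moved by less than their intervals in all 12 alternatives. Depth could not be assessed.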

Other observations

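The columns upSign and loSign separated long domains more than the other score columns did. The median upSign was 0.918 in long domains (0.910 to 0.927, n = 233), 0.760 in other domains (n = 1893) and 0.860 in those of 50 to 100 kb (0.841 to 0.881, n = 226). For loSign the medians were 0.922, 0.760 and 0.864. Both columns rose with length over the whole list, the median upSign from 0.641 up to 10 kb to 0.933 over 200 kb. Among other domains the Spearman rho with length was 0.49 for both columns. Among long domains it was 0.28 for upSign and 0.18 for loSign. Above the 90th percentile of the list by loSign lay 117 of 233 long domains (50.2%) and 46 of 226 of those of 50 to 100 kb (20.4%). The loSign of 1 long domain lay under the lower quartile of the list.

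Along the large arms, long domains were fewest in the first 20% of arm length from position 1, with 36 of 428 domains (8.41%), and made up 11.8, 13.5, 10.8 and 10.9% of domains in the following steps of 20%. The arms were pooled from their listed start, without regard to which end lies near the centromere. No intervals and no values per arm were taken, so a trend along single arms cannot be read from these shares.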
